A study of Homo sapiens with 12 samples.

Results

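Amino acid and taurine transporters of the cell membrane were followed by RNA sequencing in cultured endothelial cells of human brain microvessels. The group holds 10 genes of the 23346 distinct gene symbols in the deposited count table. They were chosen by name as transporters of neutral, cationic and acidic amino acids and of taurine, with earlier results of these data known. The cells were bought from a commercial supplier and held for 48 h with a transfected siRNA to the glucose transporter gene SLC2A1 (siGlut1, for Glut1) or with a non-silencing siRNA. Both siRNAs were used in high glucose and in control glucose, and neither glucose concentration nor the length of the glucose exposure is given in the sources used here. The 4 groups were siGlut1 in high glucose (n = 3), non-silencing siRNA in high glucose (n = 2), siGlut1 in control glucose (n = 3) and non-silencing siRNA in control glucose (n = 3). The labels name 1 kind of cell and do not say how many siRNA sequences or donors were used, so that every group carries the same limits as a model of the barrier. Nothing in them says whether replicates were separate cultures, so the spread behind the p-values may be only technical.

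The endothelium of the brain has tight junctions, and amino acids cross it mainly through carriers. SLC7A5 and SLC7A8 are light chains that exchange large neutral amino acids (system L) and are held at the membrane by the heavy chain SLC3A2. SLC7A1 carries arginine and lysine, and SLC38A1 and SLC38A2 bring in glutamine and alanine with sodium. SLC1A4 and SLC1A5 exchange serine and alanine, and SLC1A5 also exchanges glutamine. SLC1A1 takes up glutamate, aspartate and cysteine, and SLC6A6 takes up taurine, an organic osmolyte. When amino acids are short, the transcription factor ATF4 binds amino acid response elements and raises transcription of several of these carriers.

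The amino acid response element has the core TGATGNAAN, and it is shown here because several of the 10 genes are known targets of that response, as is the asparagine synthetase gene ASNS, which changed in these cells. RefSeq promoter windows (build GRCh38.p14, from 250 bases before to 50 after each annotated start) matched 9 of the 10 genes by symbol. SLC6A6 has no window. The core was found on either strand in a window of 5 of these 9 genes, and in 4.45% of 27305 genes with a window. Per window it was in 5 of 18, against 3.61% of 35116 windows. In SLC7A1, as in ASNS, it lies at the first annotated start, and in the other genes at a later start. No other motif searched overlaps it. The printed runs read 5′ to 3′ along the gene, and capitals mark the core.
SLC7A1, minus strand of chr13:29595663-29595938: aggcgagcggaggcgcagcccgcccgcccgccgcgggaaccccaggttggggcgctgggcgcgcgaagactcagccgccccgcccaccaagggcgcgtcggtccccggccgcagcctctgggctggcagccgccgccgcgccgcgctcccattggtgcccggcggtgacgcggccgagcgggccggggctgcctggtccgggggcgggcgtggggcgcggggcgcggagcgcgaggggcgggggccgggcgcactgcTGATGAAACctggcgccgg
SLC38A1, minus strand of chr12:46266502-46266530: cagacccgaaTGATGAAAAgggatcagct
SLC1A5, minus strand of chr19:46784893-46784921: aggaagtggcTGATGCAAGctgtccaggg
SLC1A4, plus strand of chr2:64989381-64989409, core on the opposite strand: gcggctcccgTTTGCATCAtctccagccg
SLC3A2, plus strand of chr11:62881725-62881748, core on the opposite strand: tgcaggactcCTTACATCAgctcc
ASNS, minus strand of chr7:97872458-97872486: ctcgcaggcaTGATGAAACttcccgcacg
The cores of SLC7A1 and ASNS have the same 9 letters. The first base of the core is base 7 after the start in SLC7A1 and base 68 before it in ASNS. The same windows were searched on both strands for 7 other motifs, whose shares are per gene with a window. The antioxidant response element core TGACNNNGC was in 4 of the 9 genes (16.1% of all genes) and the tonicity element core TGGAAA in 4 (24.5%). The E-box CACGTG was in 3 (8.77%), the GC box GGGCGG in 9 (48.3%), the CCAAT box CCAAT in 5 (39.7%) and the TATA box TATAAA in 1 (14%). The cyclic AMP response element TGACGTCA was in 0 of the 9 (2.25%). A match is a description of these letters and not of a bound site.

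Total deposited counts per library ranged over 40135082 to 90536476, and all 10 genes passed the low-count filter, with at least 84 counts in every library. SLC2A1 had 6.26 to 9.05 CPM (counts scaled to library size) in the 6 siGlut1 libraries, against 20.7 to 25.7 CPM in the 5 non-silencing libraries. All 14 endothelial markers were expressed, with a summed 7635 to 11059 CPM per library. With siGlut1 averaged over media 3 of the 14 rose, against 7.93% of all genes tested. These were KDR, ENG and TEK (log2 fold changes of 0.31, 0.31 and 0.29). Of 10 markers of pericytes and smooth muscle, PDGFRB reached at most 0.363 CPM and KCNJ8, CSPG4 and DES were at or near 0, while ACTA2 had 19.04 to 23.6, RGS5 1491 to 2421 and ANPEP 1324 to 1971 CPM. With siGlut1 averaged over media ANPEP rose by 0.32 and RGS5 fell by 0.35 on the log2 scale (adjusted p = 0.00409 and 0.00394), and the part of these marker changes in the transporter results was not tested. The 6 fibroblast markers summed to at most 4.17 CPM, and AQP4, P2RY12, CD3E and CDH1 had no count. Single members of other lists were present, with the epithelial keratins KRT18 at 231 to 286 and KRT19 at 33.6 to 110 CPM. The neuronal SYT1 had 31.2 to 46.7 CPM and the macrophage marker CD68 37.9 to 73.0 CPM. The rest of these lists were lower, with KRT8 at 9.22 to 17.6 CPM and CD14 at most 1.26 CPM. EPCAM reached at most 0.625, SNAP25 0.444, RBFOX3 0.198, CSF1R 0.172 and PTPRC 0.119 CPM. The deposited column of non-silencing high glucose replicate 2 is the mean of the other replicates of its group in 23397 of 23398 entries and was left out. The non-silencing and siGlut1 libraries of control glucose numbered 3 deviated from their group means together (r = 0.535 across genes), so calls of the 10 transporters that change without both are given beside their values.

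Levels were compared between genes as CPM per kilobase of the deposited gene length. SLC38A2 was highest in all 4 groups, at a mean of 142 ± 10.6 CPM per kb with siGlut1 in high glucose, 145 ± 1.82 with non-silencing siRNA in high glucose, 110 ± 6.30 with siGlut1 in control glucose and 120 ± 3.93 with non-silencing siRNA in control glucose (SD). Over the 11 libraries it averaged 128 CPM per kb, above 96.5% of the tested genes. SLC3A2 and SLC1A5 came next, at 44.6 and 41.0 CPM per kb, and did not differ beyond their spread in high glucose, where their ranges overlapped with either siRNA. SLC38A1 followed at 29.3 CPM per kb.

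A middle set held SLC7A5 at 17.8, SLC7A1 at 17.4, SLC1A1 at 13.1 and SLC6A6 at 10.4 CPM per kb. SLC7A5 and SLC7A1 overlapped in 3 of the groups. SLC6A6 was the lowest of this set except with non-silencing siRNA in high glucose, where its 14.4 ± 0.529 CPM per kb overlapped the 13.6 ± 0.942 CPM per kb of SLC7A5 (SD, n = 2). SLC7A8 and SLC1A4 stood far below, at 0.867 and 0.698 CPM per kb, above 20.6% and 18.9% of the tested genes. SLC1A4 had the higher mean of these 2 genes with siGlut1 and SLC7A8 with non-silencing siRNA, and their ranges overlapped with siGlut1 in both media.

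**Figure D1:**
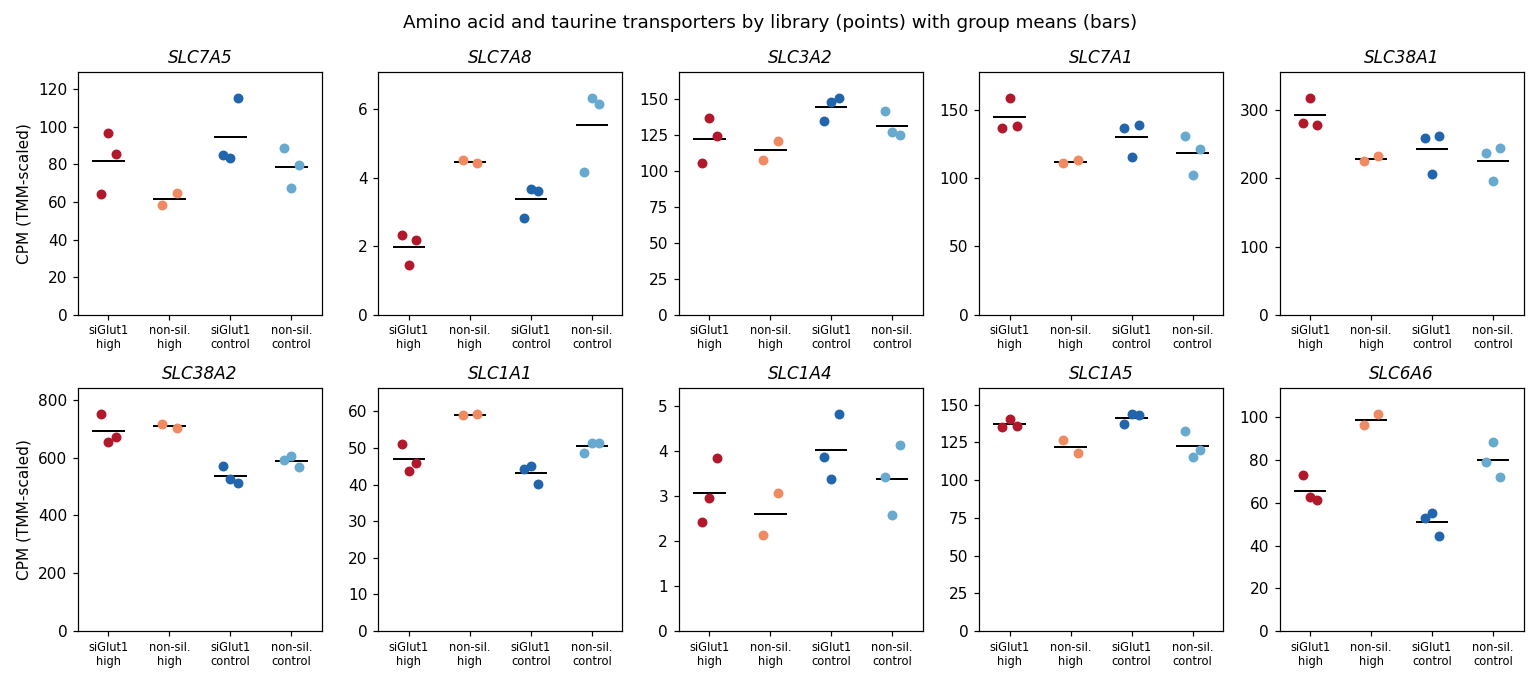
Library-scaled counts (CPM, with TMM factors) of the 10 transporters in each library, by group, with points for libraries, bars for group means and every axis starting at 0. SLC6A6, SLC7A8 and SLC1A1 lie lower with siGlut1 than with non-silencing siRNA in both media without overlap, and SLC38A2 lies higher in high than in control glucose with either siRNA. Lower without overlap with siGlut1 were 22% of all genes in high and 9.6% in control glucose, and the share in both was not computed. Higher without overlap in high glucose were 10.9% with siGlut1 and 8.61% with non-silencing siRNA.

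The first question of the design is what changed when Glut1 was suppressed. Averaged over both media, 5 of the 10 transporters changed in edgeR's quasi-likelihood test at an adjusted p under 0.05, against 14.4% of the 14324 genes tested, and 7 had an unadjusted p under 0.05, against 29.5%. SLC7A8, SLC6A6 and SLC1A1 fell (6.49% of all genes fell), and SLC7A1 and SLC1A5 rose (7.93% rose). The falls had log2 fold changes of -0.94, -0.62 and -0.28, and the rises 0.25 and 0.19. The median of the 10 was 0.15, against -0.0045 over all genes tested. In bulk RNA, fewer cells of a type and less RNA per cell cannot be told apart.

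**Figure D2:**
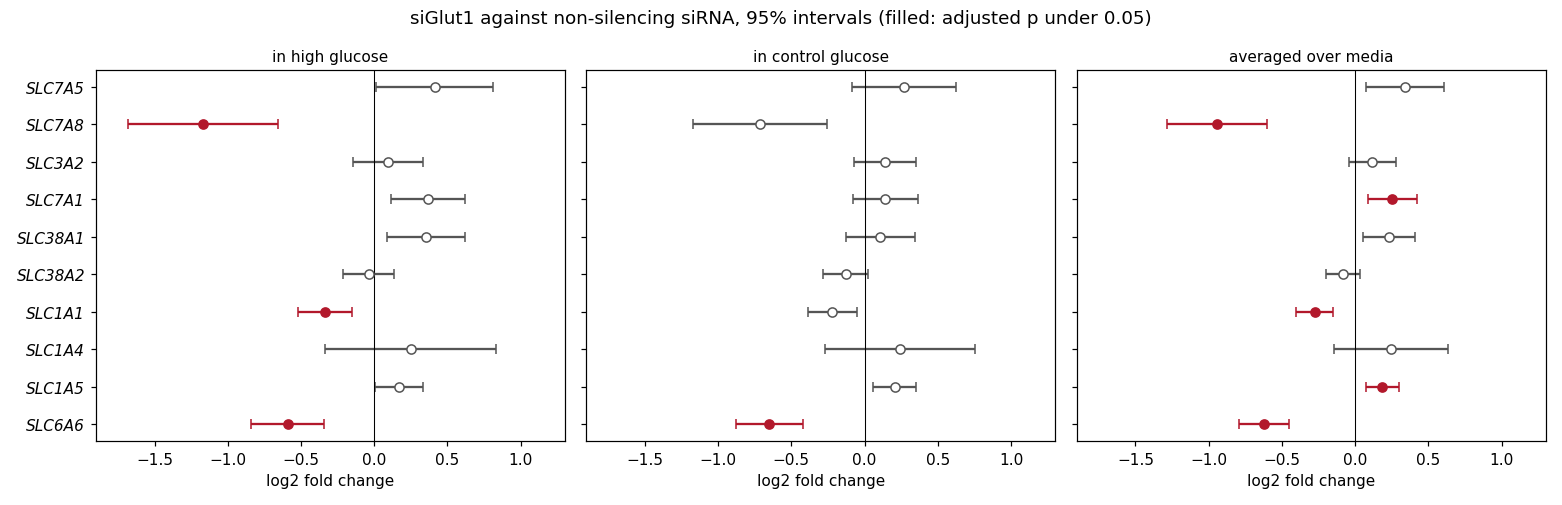
Log2 fold change of siGlut1 against non-silencing siRNA for each transporter in high glucose, in control glucose and averaged over media. Points are estimates, bars 95% intervals, and filled red points have an adjusted p under 0.05, which are 3, 1 and 5 of the 10 genes.

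The taurine transporter SLC6A6 had 73.0, 62.5 and 61.5 CPM with siGlut1 in high glucose, against 96.3 and 101 CPM with non-silencing siRNA. In control glucose it had 53.1, 55.2 and 44.4 CPM with siGlut1, against 79.2, 88.5 and 72.1 CPM with non-silencing siRNA. Every siGlut1 library lay below every non-silencing library of the same medium (22% of all genes in high and 9.6% in control glucose). The log2 fold change was -0.59 ± 0.12 (SE) in high glucose (adjusted p = 0.0209) and -0.65 ± 0.10 in control glucose (adjusted p = 0.0111), and averaged over media it was -0.62 ± 0.08 (adjusted p = 0.000732), a level 0.650 times that with non-silencing siRNA. The averaged fall passed the threshold in all 21 other analyses of the same counts, and the fall in control glucose with each library left out in turn, but not in a fit of only those groups (adjusted p = 0.0612). The fall in high glucose lost its call without non-silencing high 1 or 3 (adjusted p = 0.125 and 0.171) or siGlut1 high 2 or 3 (0.0781 and 0.0742). SLC6A6 shares bases with GRIP2, which had at most 0.122 CPM.

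Of the light chains of system L, SLC7A8 fell. It had 2.33, 1.45 and 2.17 CPM with siGlut1 in high glucose, against 4.50 and 4.42 CPM with non-silencing siRNA. Its siGlut1 libraries had 2.81, 3.67 and 3.61 CPM in control glucose, against 4.15, 6.33 and 6.14 CPM with non-silencing siRNA. The groups did not overlap in either medium (lower without overlap for 22% of all genes in high and 9.6% in control glucose). The lowest of the 4 groups was siGlut1 in high glucose. The averaged log2 fold change was -0.94 ± 0.16 (SE, adjusted p = 0.00305), which passed in all 21 other analyses. In high glucose it was -1.17 ± 0.23 (adjusted p = 0.0229), a level 0.445 times that with non-silencing siRNA. Without non-silencing high 1 or 3 that adjusted p was 0.143 or 0.150, and without siGlut1 high 2 or 3 it was 0.0722 or 0.0624. In control glucose the log2 fold change of -0.72 ± 0.21 missed the threshold (adjusted p = 0.0923) and passed it with DESeq2 (0.0206).

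The other light chain, SLC7A5, did not pass the test in any comparison of the 11 libraries in edgeR. It had 64.2, 96.5 and 85.5 CPM with siGlut1 in high glucose, against 58.7 and 64.7 CPM with non-silencing siRNA. With siGlut1 in control glucose it had 85.2, 83.6 and 115 CPM, against 88.7, 67.6 and 79.7 CPM with non-silencing siRNA. The groups overlapped in both media, with siGlut1 control 3 the highest library. The averaged log2 fold change was 0.34 ± 0.12 (adjusted p = 0.0871, 95% interval 0.07 to 0.61). It passed with DESeq2 (0.0397) and without siGlut1 high 1 (0.0334). Its pass with all 12 columns (0.0421) carries no weight, since the added column is a mean of other libraries. The heavy chain SLC3A2 had 105 to 137 CPM with siGlut1 and 108 to 121 CPM with non-silencing siRNA in high glucose, and 135 to 151 CPM with siGlut1 and 125 to 142 CPM with non-silencing siRNA in control glucose. Its averaged log2 fold change was 0.12 ± 0.07 (adjusted p = 0.323). The near copies SLC7A5P1 and SLC7A5P2 had at most 0.253 and 0.444 CPM, and reads of SLC7A5 that were assigned to them would be missing here.

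The balance of the light chains was looked at after these values were seen and is given without a test. Per kilobase, SLC7A5 was 26.4, 64.0 and 37.8 times SLC7A8 in siGlut1 high 1, 2 and 3, against 12.5 and 14.03 times in non-silencing high 1 and 3. In control glucose the ratio was 29.0, 21.8 and 30.7 with siGlut1, against 20.5, 10.3 and 12.5 with non-silencing siRNA. Every siGlut1 library had a higher ratio than every non-silencing library of either medium. The ratio of SLC3A2 to SLC7A5 per kilobase lay between 2.05 and 2.95 in all libraries.

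**Figure D3:**
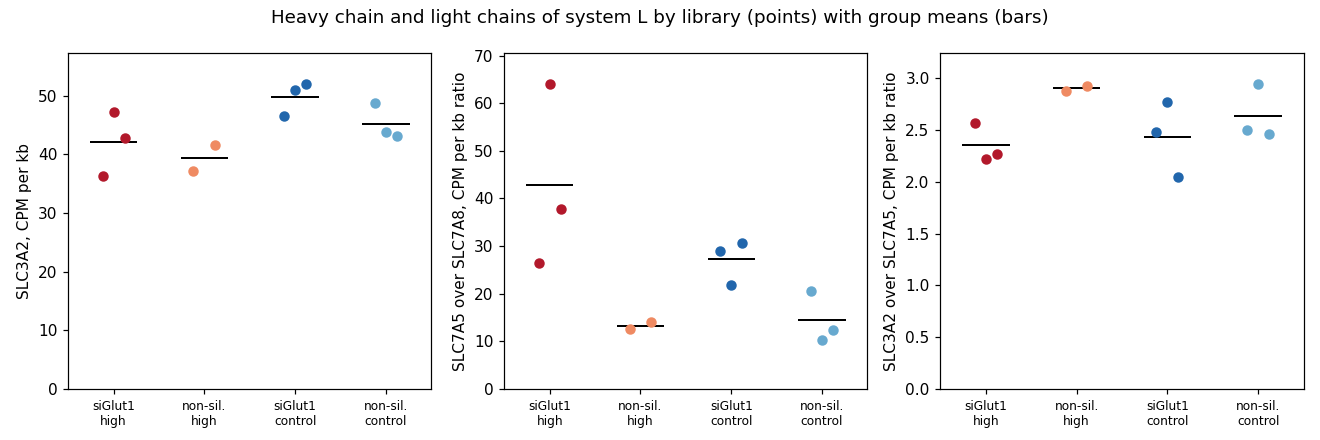
System L in each library, with points for libraries and bars for group means: SLC3A2 in CPM per kb, the ratio of SLC7A5 to SLC7A8, and the ratio of SLC3A2 to SLC7A5, both of CPM per kb. The 6 siGlut1 libraries have SLC7A5 to SLC7A8 ratios of 21.8 to 64.0, above the 10.3 to 20.5 of the 5 non-silencing libraries.

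The glutamate and cysteine transporter SLC1A1 had 51.1, 43.8 and 45.9 CPM with siGlut1 in high glucose, against 58.996 and 59.3 CPM with non-silencing siRNA. The siGlut1 libraries of control glucose had 44.4, 45.1 and 40.3 CPM, against 48.5, 51.5 and 51.3 CPM with non-silencing siRNA. All siGlut1 libraries lay below the non-silencing libraries of their medium (22% of all genes in high and 9.6% in control glucose). The averaged log2 fold change of -0.28 ± 0.06 (SE, adjusted p = 0.00851) passed in all 21 other analyses. The call in high glucose, at -0.33 ± 0.08 (adjusted p = 0.0495), was lost in 8 of the 11 analyses that left out a library (adjusted p of 0.0591 to 0.240), with a replicate block (0.0716), with DESeq2 size factors (0.0529) and with no low-count filter (0.0663). Leaving out siGlut1 high 1 or either control library numbered 3 kept it. In control glucose the log2 fold change was -0.22 ± 0.08 (adjusted p = 0.149).

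The arginine and lysine transporter SLC7A1 had 137, 159 and 139 CPM with siGlut1 in high glucose, against 111 and 114 CPM with non-silencing siRNA. Its values in control glucose were 137, 116 and 139 CPM with siGlut1, against 131, 102 and 121 CPM with non-silencing siRNA. The groups were apart in high glucose (22.6% of all genes were higher without overlap) and overlapped in control glucose. The averaged log2 fold change was 0.25 ± 0.08 (SE, adjusted p = 0.0483). That rise was lost in 8 of the 11 analyses that left out a library (adjusted p of 0.0564 to 0.141), and kept without siGlut1 control 2 and without either of non-silencing control 1 and 3. It was also lost without both control libraries numbered 3 (0.0758). Across genes, log2 fold changes of the averaged comparison went with gene length (Spearman rho = 0.12), and with that trend removed the value for SLC7A1 was 0.22 (adjusted p = 0.0763).

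SLC1A5, which exchanges glutamine for other neutral amino acids, had 135, 141 and 136 CPM with siGlut1 in high glucose, against 127 and 118 CPM with non-silencing siRNA. In control glucose it had 137, 144 and 143 CPM with siGlut1, against 132, 115 and 120 CPM with non-silencing siRNA. All siGlut1 libraries lay above the non-silencing libraries of their medium (22.6% of all genes in high and 11% in control glucose). The averaged log2 fold change was 0.19 ± 0.05 (SE, adjusted p = 0.0300), a level 1.14 times that with non-silencing siRNA. It missed the threshold in 9 of the 11 analyses that left out a library (adjusted p of 0.0524 to 0.137), all but those without non-silencing control 1 or 3, and without both control libraries numbered 3 (0.0574). Its relative SLC1A4 had 2.42 to 3.85 CPM with siGlut1 and 2.13 to 3.08 CPM with non-silencing siRNA in high glucose, and an averaged log2 fold change of 0.24 ± 0.18 (adjusted p = 0.393).

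The sodium-coupled carriers SLC38A1 and SLC38A2 are neighbours on chromosome 12 (hg19), 88762 bases apart. SLC38A1 had 281, 318 and 278 CPM with siGlut1 in high glucose, against 225 and 233 CPM with non-silencing siRNA. The groups did not overlap (higher without overlap for 22.6% of all genes). Values in control glucose were 259, 207 and 262 CPM with siGlut1, against 237, 195 and 244 CPM with non-silencing siRNA, with overlap. Its averaged log2 fold change was 0.23 ± 0.08 (adjusted p = 0.0821), which passed without siGlut1 control 2 (0.0283). Its pass with all 12 columns (0.0360) carries no weight, since the added column is a mean of other libraries. SLC38A2 had an averaged log2 fold change of -0.08 ± 0.05 (adjusted p = 0.317, 95% interval -0.20 to 0.03).

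By medium, 3 of the 10 transporters fell and 0 rose in high glucose, SLC7A8, SLC6A6 and SLC1A1, against 1.64% of genes that fell and 2.47% that rose (4.11% in all). In control glucose 1 fell, SLC6A6, and 0 rose, against 1.26% and 1.7% (2.96% in all). At an unadjusted p under 0.05 there were 7 members in high glucose (20.8% of genes) and 4 in control glucose (17.4%), and DESeq2 called SLC7A1 higher in high glucose. The high-glucose comparison rests on 2 non-silencing libraries. The groups did not overlap for 3 lower and 3 higher members in high glucose, where 22% and 22.6% of all genes were lower and higher without overlap. In control glucose they did not overlap for 3 lower members (9.6% of all genes) and 1 higher (11%). The medians of the 10 were 0.13 in high and 0.12 in control glucose, against -0.00048 and -0.0067 over all genes. The comparison in high glucose went with gene length at a Spearman rho of 0.24 across genes, and with that trend removed all 3 calls remained.

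The second question is what high glucose changed. Averaged over both siRNAs, 1 of the 10 transporters changed, against 0.412% of genes tested (0.251% rose), and that was SLC38A2, which rose. SLC38A2, a sodium-coupled importer of small neutral amino acids that ATF4 and hypertonicity are known to induce, had 750, 653 and 671 CPM with siGlut1 in high glucose, against 571, 527 and 512 CPM with siGlut1 in control glucose. With non-silencing siRNA it had 716 and 704 CPM in high glucose, against 591, 605 and 567 CPM in control glucose. All high-glucose libraries lay above all control-glucose libraries, whichever siRNA they had. With siGlut1 10.9% and with non-silencing siRNA 8.61% of all genes were higher without overlap. The averaged log2 fold change of SLC38A2 was 0.32 ± 0.05 (SE, adjusted p = 0.0382). At an unadjusted p under 0.05 there were 6 members, against 16.9% of genes. This call passed in only 2 of the 11 analyses that left out a library, those without non-silencing control 3 or siGlut1 control 1, and in the other 9 its adjusted p was 0.054 to 0.225 at log2 fold changes of 0.29 to 0.34.

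**Figure D4:**
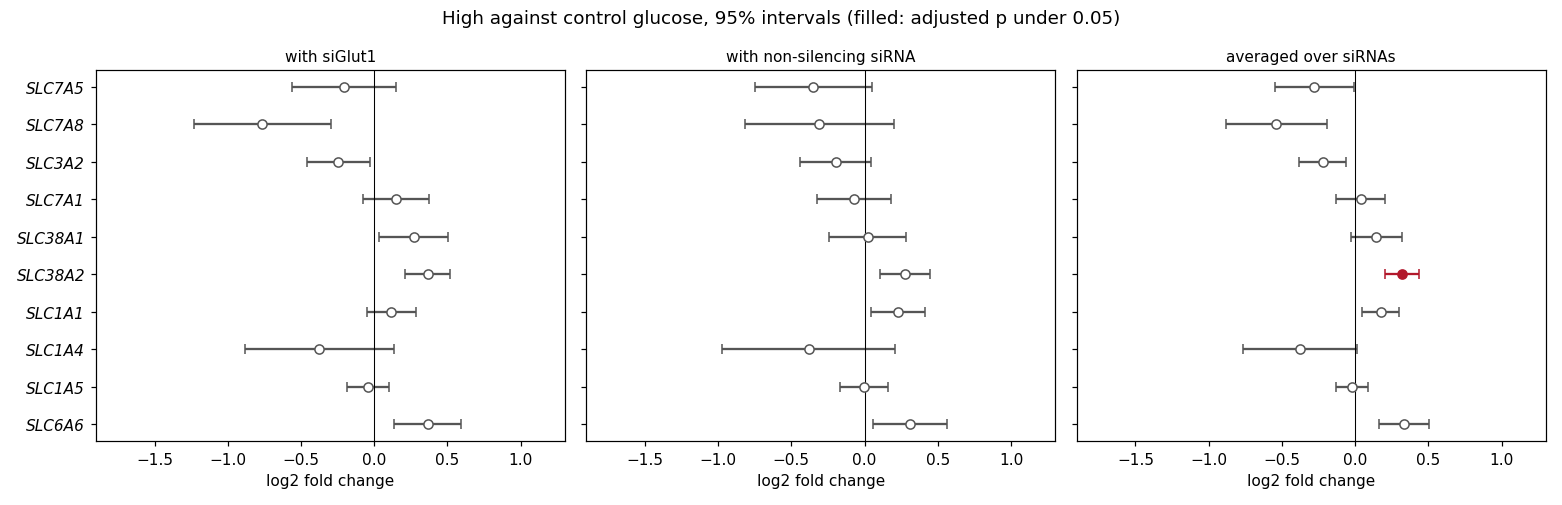
Log2 fold change of high against control glucose for each transporter with siGlut1, with non-silencing siRNA and averaged over siRNAs. Points are estimates, bars 95% intervals, and the only filled red point, with an adjusted p under 0.05, is SLC38A2 in the average at 0.32.

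SLC6A6 missed the threshold in the averaged glucose comparison, with a log2 fold change of 0.34 ± 0.08 (SE, adjusted p = 0.0944). Its libraries in high glucose lay above those in control glucose with siGlut1, at 61.5 to 73.0 against 44.4 to 55.2 CPM (10.9% of all genes). SLC6A6 did so with non-silencing siRNA too, at 96.3 to 101 against 72.1 to 88.5 CPM (8.61%). It passed with DESeq2, without non-silencing control 3 and without both control libraries numbered 3, where its adjusted p reached down to 0.00658. Its pass with all 12 columns carries no weight, since the added column is a mean of other libraries. SLC7A8 had an averaged log2 fold change of -0.54 ± 0.16 (adjusted p = 0.158), and passed with DESeq2 (0.0421). The system L members SLC7A5 and SLC3A2 had -0.28 ± 0.12 (adjusted p = 0.279) and -0.22 ± 0.07 (0.187). SLC1A1 had 0.17 ± 0.06 (adjusted p = 0.186), SLC1A4 -0.38 ± 0.18 (0.305), SLC38A1 0.15 ± 0.08 (0.381), SLC7A1 0.04 ± 0.08 (0.838) and SLC1A5 -0.02 ± 0.05 (0.843). The median of the 10 was 0.0067, against -0.014 over all genes, and across genes the log2 fold changes went with gene length at a Spearman rho of 0.26.

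With each siRNA taken alone, 0 of the 10 transporters passed edgeR's test for glucose. With siGlut1 that compares with 0.014% of genes tested in edgeR, and 5 members had an unadjusted p under 0.05 (15.2% of all genes). DESeq2 called 3 members, SLC7A8, SLC38A2 and SLC6A6, and its own share of all genes is not given here. Without both control libraries numbered 3 SLC38A2 also passed in edgeR (adjusted p = 0.0366). With non-silencing siRNA it compares with 0% of genes tested, 3 members had an unadjusted p under 0.05 (5.4% of all genes) and DESeq2 called 0. With siGlut1 the groups did not overlap for 3 higher members (10.9% of all genes), SLC38A1, SLC38A2 and SLC6A6, and 1 lower (11.7%), SLC7A8. With non-silencing siRNA they did not overlap for 3 higher members (8.61%), SLC38A2, SLC1A1 and SLC6A6, and 2 lower (9.23%), SLC7A5 and SLC3A2. Log2 fold changes went with gene length across genes at a Spearman rho of 0.38 with siGlut1 and 0.04 with non-silencing siRNA. With that trend removed 0 of the 10 transporters passed with either siRNA. The glucose comparisons use the libraries of the siRNA comparisons, so the values of the 2 factors are not independent.

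Whether the effect of siGlut1 differed between media was tested by the interaction. It passed for 0 of the 10 members and for 0% of genes tested in edgeR, with 0 members and 2.75% of genes at an unadjusted p under 0.05, and 0 members with DESeq2. The largest interaction among the 10 was that of SLC7A8, at -0.45 ± 0.31 on the log2 scale (95% interval -1.14 to 0.23). That of SLC6A6 was 0.06 ± 0.16 (95% interval -0.28 to 0.40). These intervals include differences as large as the averaged changes of several members. Interaction values went with gene length across genes at a Spearman rho of 0.39, and with that trend removed 0 members passed.

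The 31 other amino acid transporters of the plasma membrane gave 10 genes with enough counts to test. With siGlut1 averaged over media 3 of these 10 rose and 0 fell, at a median log2 fold change of 0.25, where 7.93% of all genes rose, 6.49% fell and the median was -0.0045. SLC7A2, a second arginine and lysine carrier, had 44.0 ± 12.3 CPM with siGlut1 in high glucose, against 23.4 ± 2.44 CPM with non-silencing siRNA. With siGlut1 in control glucose the mean was 42.2 ± 6.28 CPM, against 26.5 ± 1.36 CPM with non-silencing siRNA (SD), and its averaged log2 fold change was 0.79 ± 0.13 (adjusted p = 0.00286). SLC7A6, a light chain that exchanges cationic for neutral amino acids and pairs with SLC3A2, rose by 0.35 ± 0.05 (adjusted p = 0.00101). Both averaged rises held with each library left out in turn. In high glucose alone SLC7A2 and SLC7A6 rose, and in control glucose alone SLC7A6, calls that held in 8, 7 and 8 of the 11 analyses that left out a library (adjusted p of at most 0.216, 0.166 and 0.0879 in the others). The neutral amino acid transporter SLC6A15 rose by 0.44 ± 0.10 (adjusted p = 0.0156) and missed the threshold without non-silencing high 1 or 3 (at most 0.0713). SLC7A11, the cystine and glutamate exchanger, had 210 ± 17.7 CPM with siGlut1 and 192 ± 4.79 CPM with non-silencing siRNA in high glucose. In control glucose the order was the other way, at 156 ± 17.6 CPM with siGlut1 and 188 ± 32.3 CPM with non-silencing siRNA. It passed in no comparison in edgeR.

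Of 12 tested genes of osmolyte transport, taurine synthesis and the tonicity response, listed for their relation to SLC6A6, 3 rose and 1 fell with siGlut1 averaged over media (median 0.18), where 7.93% of all genes rose and 6.49% fell. The creatine transporter SLC6A8 had 82.2 ± 2.94 CPM with siGlut1 in high glucose, against 48.9 ± 3.35 CPM with non-silencing siRNA. In control glucose it had 92.7 ± 9.99 CPM with siGlut1, against 58.7 ± 13.8 CPM with non-silencing siRNA (SD), and its averaged log2 fold change was 0.71 ± 0.11 (adjusted p = 0.00235). LRRC8A, a subunit of the volume-regulated anion channel that lets taurine out of cells, rose by 0.40 ± 0.06 (adjusted p = 0.00145), and both held with each library left out in turn. The kinase gene SGK1 rose by 0.53 ± 0.12 (adjusted p = 0.0135) and aldose reductase AKR1B1, which makes sorbitol from glucose, fell by 0.18 on the log2 scale (adjusted p = 0.0156), and both missed the threshold without non-silencing high 1 or 3. With high glucose averaged over siRNAs 1 of the 12 rose (0.251% of all genes), the myo-inositol transporter SLC5A3. It had 28.7 ± 3.13 CPM with siGlut1 in high glucose, against 16.8 ± 2.88 CPM with siGlut1 in control glucose. With non-silencing siRNA it had 21.99 ± 1.03 CPM in high glucose, against 16.9 ± 1.97 CPM in control glucose. Its averaged log2 fold change of 0.57 ± 0.10 (adjusted p = 0.0458) passed in only 2 of the 11 analyses that left out a library, those without non-silencing control 3 or siGlut1 control 3.

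Of 30 tested genes of the ATF4 amino acid response, 1 rose and 4 fell with siGlut1 averaged over media (median -0.04), against 7.93% and 6.49% of all genes. ASNS, the glutamine-dependent asparagine synthetase whose core sequence is printed above, had 14.8 ± 2.22 CPM with siGlut1 in high glucose, against 29.9 ± 2.43 CPM with non-silencing siRNA. Means in control glucose were 19.1 ± 1.997 CPM with siGlut1, against 33.2 ± 1.38 CPM with non-silencing siRNA (SD). Its averaged log2 fold change was -0.91 ± 0.08 (adjusted p = 0.000154), the lowest adjusted p of all listed genes in this comparison, and it held with each library left out in turn. In each medium alone ASNS and SHMT2, a mitochondrial enzyme that turns serine into glycine, were the 2 genes of this list that fell. The call of ASNS held in 9 of the 11 analyses that left out a library in high glucose and in all 11 in control glucose. The calls of SHMT2 held in 5 of the 11 in either medium. ATF4 itself, at 218 to 262 CPM as group means, passed in no comparison. The serine synthesis gene PSAT1 fell by 0.36 on the log2 scale (adjusted p = 0.0152), and missed the threshold without non-silencing high 1 or 3 (at most 0.0595). CEBPG, a partner of ATF4 in binding DNA, rose by 0.32 ± 0.07 (adjusted p = 0.00879), and the stress gene DDIT4 had -0.55 ± 0.15 (adjusted p = 0.0334), which held in 3 of the 11 analyses that left out a library. With high glucose averaged over siRNAs 0 of the 30 rose and 2 fell (0.251% and 0.161% of all genes), the transcription factors CEBPB at -0.60 ± 0.11 (adjusted p = 0.0470) and ATF5 at -0.42 ± 0.07 (0.0387). The median of the 30 was then -0.20, and each fall held in 2 of the 11 analyses that left out a library, those without non-silencing control 3 or siGlut1 control 1.

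Of 14 tested enzymes of glutamine, glutamate and glutathione, 0 rose and 6 fell with siGlut1 averaged over media (median -0.17), against 7.93% and 6.49% of all genes. OPLAH, the oxoprolinase of the glutathione cycle, had -1.25 ± 0.30 (adjusted p = 0.0173). It missed the threshold without non-silencing high 3 (at most 0.123). The gamma-glutamyltransferase relatives GGT5 and GGT7 had -0.59 ± 0.16 and -0.52 ± 0.15 (adjusted p = 0.0278 and 0.0414) and held in 4 and 2 of the 11 analyses that left out a library. In either medium alone 0 of the 14 passed in edgeR, with 5 in control and 6 in high glucose at an unadjusted p under 0.05 (17.4% and 20.8% of all genes). DESeq2 called 2 and 3 of the 14, and its own share of all genes is not given here.

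Of 25 genes of lysosomal amino acid transport and sensing, 1 rose and 3 fell with siGlut1 averaged over media (median 0.05), against 7.93% and 6.49% of all genes. SLC38A7, a lysosomal exporter of glutamine and asparagine, rose by 0.32 ± 0.06 (adjusted p = 0.00504). MTOR, the kinase that reads amino acid supply, fell by 0.32 on the log2 scale (adjusted p = 0.00462), and both held with each library left out in turn. LAMTOR2, part of the lysosomal anchor of that kinase, and SESN1, a relative of the leucine sensor, fell by 0.31 and 0.30 (adjusted p = 0.0144 and 0.0113), and missed the threshold without non-silencing high 1 (at most 0.0916 and 0.0600). By medium, SLC38A7 rose and MTOR fell with siGlut1 in control glucose only (log2 fold changes of 0.33 and -0.48), against 1.7% and 1.26% of all genes. LAMTOR2 and SESN1 passed in high glucose only (-0.47 and -0.38), where 1.64% of all genes fell. Among these calls by medium, only that of MTOR held with each library left out in turn. With high glucose averaged over siRNAs the amino acid transporter SLC36A4 was at 0.36 ± 0.07 (adjusted p = 0.0480), a call held in 1 of the 11 analyses that left out a library, that without non-silencing control 3. Of 20 cytosolic aminoacyl-tRNA synthetases, which consume the imported amino acids, 0 passed in any comparison in edgeR, among them WARS and GARS, which had most counts. At an unadjusted p under 0.05 in edgeR there were 2 for siGlut1 averaged over media (29.5% of all genes) and 1 for high glucose averaged over siRNAs (16.9%). DESeq2 called 1 and 0 of the 20, and its own share of all genes is not given here. The medians were -0.06 for siGlut1 and 0.02 for high glucose.

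**Figure D5:**
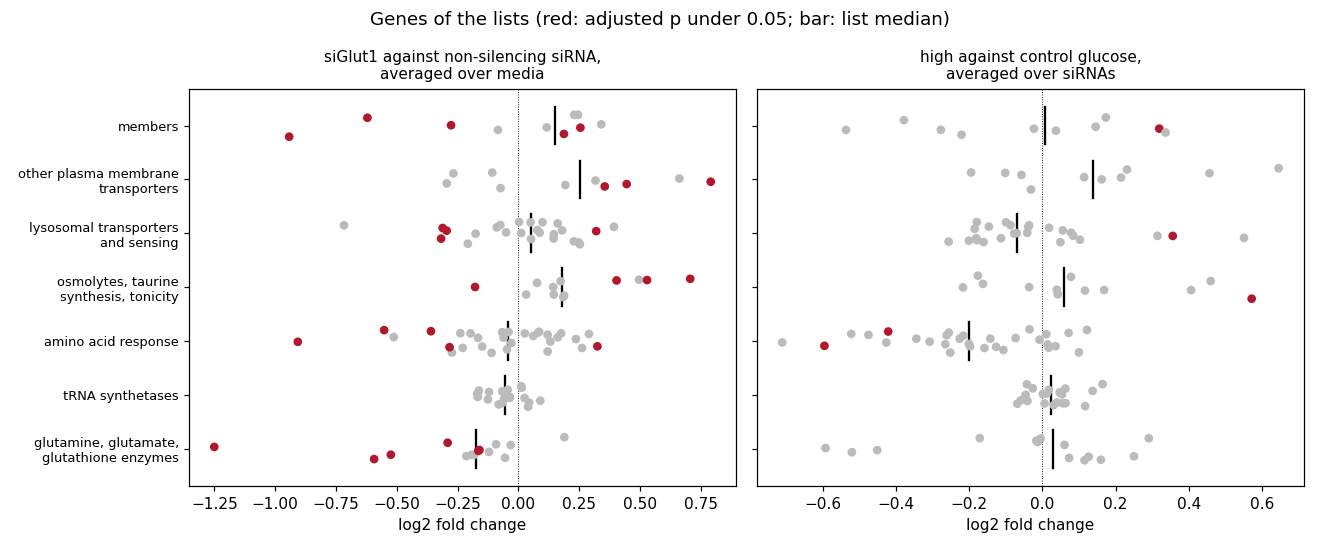
Log2 fold changes of the tested genes of each list, for siGlut1 against non-silencing siRNA averaged over media (left) and high against control glucose averaged over siRNAs (right). Each point is a gene, red with an adjusted p under 0.05 and grey otherwise, and bars are list medians, with the glutamine, glutamate and glutathione enzymes at -0.17 on the left and the amino acid response genes at -0.20 on the right.

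For the 6 transporters called in any comparison, the genes whose log2 CPM followed theirs most closely over the 11 libraries were taken from 7706 candidates. They are described by Pearson's r with no p, since the libraries fall into groups and share their depth. AHCYL1 (r = 0.970), DNAH8 (0.968) and MTMR10 (0.959) were most like SLC6A6, and LYRM1 (0.952), NSA2 (0.949) and TMBIM4 (0.944) most like SLC7A8. EXOC6 (0.970), LEPROT (0.963) and RGS5 (0.953) were most like SLC1A1. RGS5 is 1 of the 10 markers of pericytes and smooth muscle, whose sum was 3422 to 3780 CPM with siGlut1 and 3704 to 3837 CPM with non-silencing siRNA in high glucose, and 3371 to 3493 CPM with siGlut1 and 3325 to 3891 CPM with non-silencing siRNA in control glucose. RGS5 also fell with siGlut1 in control glucose, at a log2 fold change of -0.34 ± 0.08 (adjusted p = 0.0484), and ANPEP rose with siGlut1 in high glucose, at 0.38 ± 0.08 (0.0328). PDCD11 (0.956), ITPRIPL2 (0.955) and SCN8A (0.949) were most like SLC7A1, POMT2 (0.937), LRRC57 (0.925) and IFI27 (0.917) most like SLC1A5, and ATP6V1A (0.967), SEC24D (0.958) and FAM114A1 (0.950) most like SLC38A2.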

How the data were processed

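Messenger RNA was sequenced in 12 samples, and the labels name TruSeq stranded and SMARTER kits without saying which library used which. Per the submitters' processing notes the build was hg19 and DESeq2 was used. No aligner, counter, strand setting or annotation is given in the sources used here. The counts, whole and not normalised, are as deposited, and all are even in the 11 columns used. The deposited RPKM values, made by the authors, served only to check columns. Columns without a sample numbered 0.

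Of 23398 entries 23274 were analysed, and filterByExpr left 14324. In R 4.3.3 with edgeR 4.0.16, 1 quasi-likelihood model was fitted to the 4 groups (TMM factors 0.975 to 1.03, 7 residual degrees of freedom, no replicate block), with two-sided F tests and Benjamini-Hochberg adjustment over all genes tested at 0.05. Standard errors divide a log2 fold change's size by the root of F. CPM values are TMM-scaled, with a prior count of 2 on the log2 scale. The 2 siRNA comparisons share no library, and the averages combine them. Alternatives were a replicate block, a correction for gene length, DESeq2 1.42.0, its size factors, other low-count filters, only the groups compared, all 12 columns, libraries left out, a fold minimum of 1.5 and, chosen after seeing the data, halved counts. Genes other than the 10 were named by rule: up to 4 per list past the threshold by size of change, or the 2 with most counts, and the 3 most alike in pattern among genes with a mean of at least 10 CPM. Not every gene the rule names is printed. The members and lists were chosen with earlier results of these data known. One gene of the lists is not reported here by name.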

Additional observations from a re-analysis of the deposited data

How the results depend on the processing

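The averaged falls of SLC7A8, SLC6A6 and SLC1A1 kept their direction and their call in all 21 alternatives fitted. No called value changed sign. Of the values of single members under an alternative, 1438 kept their side of the threshold, 51 lost it and 21 gained it. For siGlut1 in control glucose the members past the threshold numbered 1, but 2 with DESeq2 (also SLC7A8) and 0 in a fit of only those groups (SLC6A6 at adjusted p = 0.0612). In high glucose they numbered 3, but 5 in a fit of only those groups and 5 with all 12 columns (also SLC7A1 and SLC38A1), and 0 to 3 with a library left out. Averaged over media they numbered 5, but 7 with all 12 columns (also SLC7A5 and SLC38A1), 6 with DESeq2 (also SLC7A5), 4 with a length correction (SLC7A1 was lost), 3 without both control libraries numbered 3, 2 with a fold of at least 1.5 (SLC7A8 and SLC6A6), and 3 to 5 with a library left out. For high glucose with siGlut1 they numbered 0, but 3 with DESeq2, 1 with all 12 columns and 1 without both control libraries numbered 3. For glucose averaged over siRNAs they numbered 1, but 3 with DESeq2, 2 with all 12 columns, 2 without both control libraries numbered 3, 0 with a fold of at least 1.5, and 0 to 2 with a library left out. With all 12 columns, 1 column is the mean of the other replicates of its group and adds no measurement. Calls gained or kept in that fit therefore carry no weight. The 21 alternatives for the averaged falls include it. The cause of the changes in the numbers past the threshold was not tested, other than that leaving out a library leaves fewer samples. Where this left 1 non-silencing high-glucose library, it was assumed to vary like the other groups. Counts of members or listed genes under an alternative are given without its share of all genes, so they do not compare these genes with others.

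Same-numbered siGlut1 and non-silencing libraries had correlations of 0.093, 0.353 and 0.535 in control glucose, and 0.231 and 0.192 in high glucose. Pairs of unlike number had -0.435 to 0.199 in control glucose and -0.231 to 0.076 in high glucose. Between the media same-numbered libraries had 0.239, -0.250 and 0.102 with siGlut1, and -0.077 and 0.086 with non-silencing siRNA. As the sign varied between media, the numbers were not taken as pairs across media. Within a medium all same-numbered siRNA pairs were positive, but pairs within a medium were not fitted, so the siRNA comparisons leave out any such pairing. With 2 non-silencing libraries in high glucose, the 2 correlations of each siGlut1 library there are equal in size and opposite in sign, and are not separate evidence. The replicate block gave each number 1 shift across both media. With it the members past the threshold were 1 for siGlut1 in control glucose, 2 in high glucose (SLC1A1 was lost) and 5 averaged, and for high glucose 0 with either siRNA and 1 averaged.

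Depth limits SLC7A8 and SLC1A4 most, with 84 and 102 counts in their lowest libraries. Strand and the counting of reads shared with near copies are unknown, which bears on SLC7A5.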
